A study of Nannochloropsis oceanica with 18 samples.

Results

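The 31 consecutive gene IDs from NO10G03360 to NO10G03660 of Nannochloropsis oceanica are described here, out of 10493 IDs in the deposited table. All IDs between those limits were taken, and the range was selected on its expected counts, which had been seen to switch between near 0 and high, above all between the OE libraries and the others. Differences in level between the OE libraries and the others inside it are therefore given as descriptions, without a test. Nannochloropsis oceanica is a unicellular marine alga that stores oil, and all cultures were of strain IMET1 in a modified f/2 seawater medium. Messenger RNA was sequenced from 6 groups of 3 biological replicates. The wild type (NL_WT, HL_WT), a strain labelled a knockout of the nuclear gene NO07G02030 (NL_KO, HL_KO) and a strain labelled its overexpression (NL_OE, HL_OE) were each grown in shaken flasks for 8 days. NL stands for normal light (50) and HL for high light (300), both approximate and in µmol of photons per square metre and second. The labels do not say how the KO and OE strains were made or whether each is 1 clone.

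Genes that occur as near-identical copies pose a known difficulty in short-read sequencing, because a read from one copy matches the others equally well. Programs such as Salmon assign such reads by estimation, so that a gene receives an expected count that need not be whole. A gene that shares no reads with another keeps a whole count. Near-identical copies can receive equal estimates, or the estimate can place all of the reads on one copy and none on another. The IDs carry no names or functions in the sources used here, so no role is given for any of them, and whether neighbouring IDs are neighbouring genes was not checked. No sequence was available for these IDs, and none is shown.

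The libraries held 14614662 to 18156737 counts. Mean correlations with the replicates of the same group (log2 CPM, counts scaled to library size) were 0.990 to 0.994 in the 6 OE libraries and 0.921 to 0.985 in the other 12. HL_KO replicate 2 (0.921) stood lowest, and HL_WT replicate 1 (0.944) was the lowest of the WT libraries. NO07G02030 itself was at 26.1 to 32.3 TPM in NL_WT, 14.5 to 32.9 in NL_KO and 26.2 to 29.5 in NL_OE. At high light it was at 11.7 to 22.2 TPM in HL_WT, 19.4 to 26.8 in HL_KO and 25.4 to 27.7 in HL_OE. HL_OE lay above HL_WT without overlap, while NL_OE overlapped NL_WT and both KO ranges overlapped those of WT. KO and OE are used here as the names on the labels. Cell or strain markers were not checked, since the IDs are unnamed in the sources used here.

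The 31 IDs fell into an inner block, nearly all with fractional counts, and outer IDs with whole counts only. Which IDs share reads with which cannot be seen from the counts. In the 23 IDs from NO10G03420 to NO10G03640, 22 had counts with a fractional part in at least 6 of 18 libraries. The remaining one, NO10G03550, had 0 counts in all 18. The 8 outer IDs, 6 before the block and 2 after it, had whole counts in every library. Among them NO10G03360, NO10G03410 and NO10G03650 had at most 10 counts in any library, so whole values say little there. Of the 20 IDs nearest to the range, 10 on each side, 0 had a fractional count, and of the other 382 IDs that start with NO10, 25 did (6.54%). Over the whole table the share was 7.58%. The block was not the only such run. The longest unbroken runs of IDs with fractional counts were 16 IDs from NO06G03080, 15 from NO07G04260 and 14 from NO17G00920, and NO10G03550 divides the present block into runs of 13 and 9.

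The edges of the range held whole counts only. NO10G03360, the first ID, had 0 to 7 counts, and NO10G03660, the last, had 216 to 929. Just outside, NO10G03340 had 4948 to 14926 counts, NO10G03350 had 201 to 930, NO10G03670 had 3473 to 5636 and NO10G03680 had 41 to 184.

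**Figure D1:**
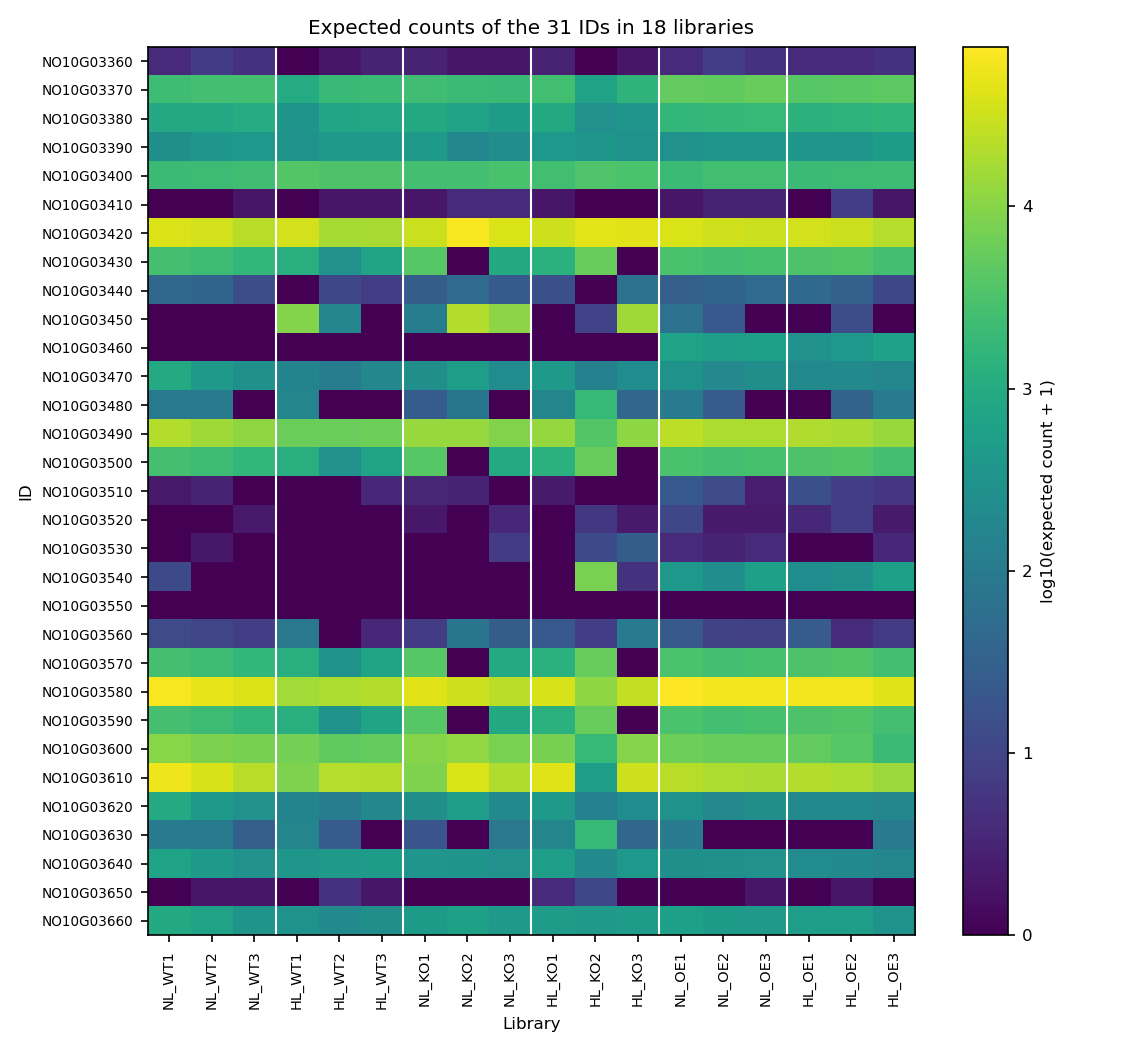
Expected counts of the 31 IDs (rows, in ID order) in the 18 libraries (columns, by group), coloured by log10(expected count + 1). Rows NO10G03430, NO10G03500, NO10G03570 and NO10G03590 show the same pattern, with 0 counts in NL_KO replicate 2 and HL_KO replicate 3, and NO10G03460 has counts in the OE libraries only.

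Levels inside the range were uneven. On the TPM scale, which accounts for length, NO10G03610 had the highest median, 2304.8 TPM (62.0 to 6548 over the 18 libraries), and NO10G03580 had a median of 1038.2 TPM (299 to 1932). NO10G03420 had a median of 781.7 TPM (387 to 1678). By CPM the same 3 IDs led, NO10G03580 with a mean of 2498, NO10G03420 with 2189 and NO10G03610 with 1465. At the other end, NO10G03360, NO10G03410, NO10G03520 and NO10G03650 never exceeded 10.03 counts in any library, NO10G03510 never exceeded 20.9 and NO10G03530 never exceeded 26.7. All 31 IDs together took 0.474% of the counts (HL_WT replicate 2) to 1.35% (NL_WT replicate 1). By group the share was 1.03% ± 0.314 in NL_WT (mean ± SD, n = 3), 0.523% ± 0.0676 in HL_WT, 0.961% ± 0.277 in NL_KO, 0.874% ± 0.139 in HL_KO, 0.960% ± 0.138 in NL_OE and 0.831% ± 0.154 in HL_OE.

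A total of 6 IDs were near-equal copies of another ID, defined by expected counts within 5% of each other, or within 1 count, in all 18 libraries, at a mean of at least 10 counts. They formed 7 of the 14 such pairs in the whole table, and 6 of its 17 IDs (0.174% of the 9794 IDs with that mean were in a pair). NO10G03430, NO10G03500, NO10G03570 and NO10G03590 formed a set of 4 whose counts differed by at most 3.59% between any pair. NO10G03470 and NO10G03620 formed the other pair, with a largest difference of 3.48%. At a tolerance of 2%, 3 of the 7 pairs were left, all among NO10G03500, NO10G03570 and NO10G03590.

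The set of 4 was high in most libraries and at 0 in a pair of them. NO10G03430, as the example, had 2762, 2204 and 1705 counts in NL_WT and 1119.5, 296 and 695 in HL_WT. In the KO strain it had 4103, 0 and 933 counts at normal light and 1285, 5489.7 and 0 at high light. The OE libraries held 2947, 2648 and 2835 counts at normal light and 3239, 3625 and 2601 at high light. So NL_KO replicate 2 and HL_KO replicate 3 had 0 counts on all 4 copies while the other KO libraries held 933 to 5489.7 on this ID, and HL_KO replicate 2 had more than any other library. Summed over the 4 copies the counts ran from 0 to 22002, and in the OE libraries from 10467 to 14460.4.

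NO10G03450 behaved in the opposite way in those libraries. It had 20125 counts in NL_KO replicate 2 and 14943 in HL_KO replicate 3, the libraries in which the set of 4 was at 0. It also had 10613 counts in NL_KO replicate 3 and 9496 in HL_WT replicate 1, where the set of 4 summed to 3742 and 4503. The other 14 libraries held 0 to 165 counts, and 8 of the 18, among them all 3 NL_WT libraries, were at 0. High and low libraries occurred together within NL_KO, HL_KO and HL_WT, so neither strain nor light level separates them.

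NO10G03480 and NO10G03630 formed a looser pair. Both were highest in HL_KO replicate 2, at 1853 and 1859.7 counts, and had at most 166 counts elsewhere. They lay within 10% of each other in 8 libraries and were both at 0 in 3. In another 6 libraries one was at 0 while the other was not, as in NL_KO replicate 2 with 78.2 and 0 counts and in NL_KO replicate 3 with 0 and 86.2.

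NO10G03540 combined both kinds of pattern. It had 390.4, 246 and 553 counts in NL_OE and 230.5, 281 and 560.02 in HL_OE. Of the other 12 libraries 9 were at 0, and HL_KO replicate 3 had 4.27, NL_WT replicate 1 had 11.5 and HL_KO replicate 2 had 7987. Its highest library was therefore not an OE library.

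NO10G03460 was the only ID of the range that was all-or-none between strains, meaning 3 counts or fewer in every library of one strain and 10 or more in every library of another. It had 686, 548 and 565 counts in NL_OE and 296, 403 and 613 in HL_OE, and 0 in each of the 6 WT and 6 KO libraries. By counting error alone, a count of 0 allows up to 3 counts in a library, or 0.172 to 0.226 CPM there. NO10G03460 had fractional counts in all 6 OE libraries, so an estimated 0 elsewhere does not limit its RNA to that level. Of all 10493 IDs, 10 met that rule (0.0953%), and the range was chosen with this ID in view, so nothing is read from the count. Without NL_WT replicate 1, NO10G03540 met the rule too, since its 5 other WT libraries were at 0.

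**Figure D2:**
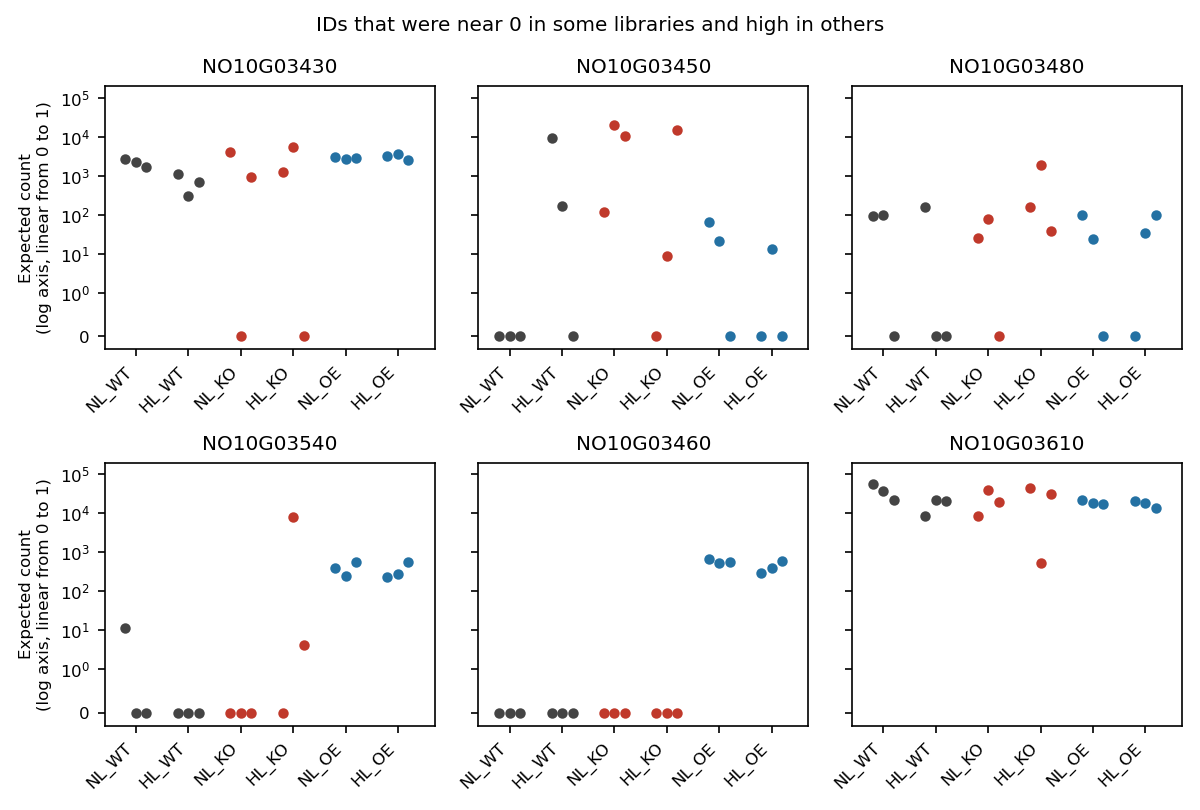
Expected counts of 6 IDs by group, 1 point per library, on a log axis that is linear between 0 and 1. NO10G03460 has 296 to 686 counts in the 6 OE libraries and 0 elsewhere, NO10G03450 has 9496 to 20125 counts in 4 libraries of NL_KO, HL_KO and HL_WT, and NO10G03610 drops to 534 counts in HL_KO replicate 2.

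Other IDs switched between single libraries, within a strain as well as between strains. With a rule set after the values were seen, 3 counts or fewer in at least 1 library and 1000 or more in at least 1 other, 8 of the 31 IDs were all-or-none, as were 9 IDs of all 10493 (0.0858%). The 8 were the set of 4 copies, NO10G03450, NO10G03480, NO10G03540 and NO10G03630. The only ID outside the range was NO29G01550. Since the range was chosen on such switching counts, nothing is read from these numbers of IDs. Of the 8, NO10G03480, NO10G03540 and NO10G03630 reached 1000 counts in HL_KO replicate 2 alone, and 5 were left without that library. With 100 counts in place of 1000, 10 of the 31 IDs and 76 of all IDs (0.724%) met the rule, NO10G03460 and NO10G03560 being the additions. NO10G03560 had 102 counts in HL_KO replicate 3, 88.5 in HL_WT replicate 1 and 76.5 in NL_KO replicate 2, and 0 to 26.05 in the other 15 libraries.

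Length was read from the deposited tables as the count divided by the TPM, which is proportional to the effective length used in the authors' estimate, and was set relative to NO10G03580. Several IDs had the same length within rounding, whether or not their counts moved together. NO10G03430, NO10G03500, NO10G03570, NO10G03590, NO10G03480 and NO10G03630 differed by at most 0.00259% in any library where both members of a pair had at least 5 counts. NO10G03450 and NO10G03540, which were high in different libraries, differed by at most 0.00395%, and NO10G03470 and NO10G03620 by at most 0.000705%. NO10G03490 and NO10G03580 were close without being equal, at 0.0523%, and NO10G03600 and NO10G03580 differed by 0.623%.

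The 9 IDs that switched most were short, but short IDs did not all switch. Among the 10376 IDs with a length, the set of 4 ranked at percentiles 15.8 to 15.9, NO10G03480 at 16.1 and NO10G03630 at 15.8. NO10G03540 stood at percentile 6.94, NO10G03450 at 5.56 and NO10G03460 at 4.86. These ranks rest on the median relative length over the libraries with counts, and those libraries differ between IDs. NO10G03540 had counts mostly in OE libraries, where short IDs had larger relative lengths (median 0.0677). NO10G03450 had counts mostly in the others (median 0.0531), so the ranks of this pair do not show a difference in length. NO10G03460 had values in OE libraries only, at 0.0441 to 0.04645, where NO10G03540 had 0.0677 to 0.0700. The abundant NO10G03580 stood at percentile 90.25, and NO10G03560, which switched at the lower threshold, at 81.6. Among IDs of like length, NO10G03380 (percentile 15.05) had 288 to 1822 counts and NO10G03390 (percentile 17.2) had 190.0 to 467, all whole. Of the 9 other IDs in the table that were all-or-none between strains, 8 lay at percentiles 0.251 to 8.78, and NO29G01550 at 67.6.

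Relative length also differed between libraries in step with the OE label. Effective length depends on the fragment lengths of a library, and short transcripts are affected most. NO10G03380, whose counts were whole in every library, had a relative effective length of 0.162 to 0.164 in the 6 OE libraries and 0.140 to 0.151 in the other 12, without overlap. NO10G03430 had 0.168 to 0.170 in the 6 OE libraries against 0.146 to 0.157 in the 10 others with counts. NO10G03450 had 0.0677 to 0.0700 in the 3 OE libraries with counts and 0.0438 to 0.0553 in the 7 others. The part of this library difference in the OE-only counts of NO10G03460 was not tested, since that ID has no value outside the OE libraries.

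**Figure D3:**
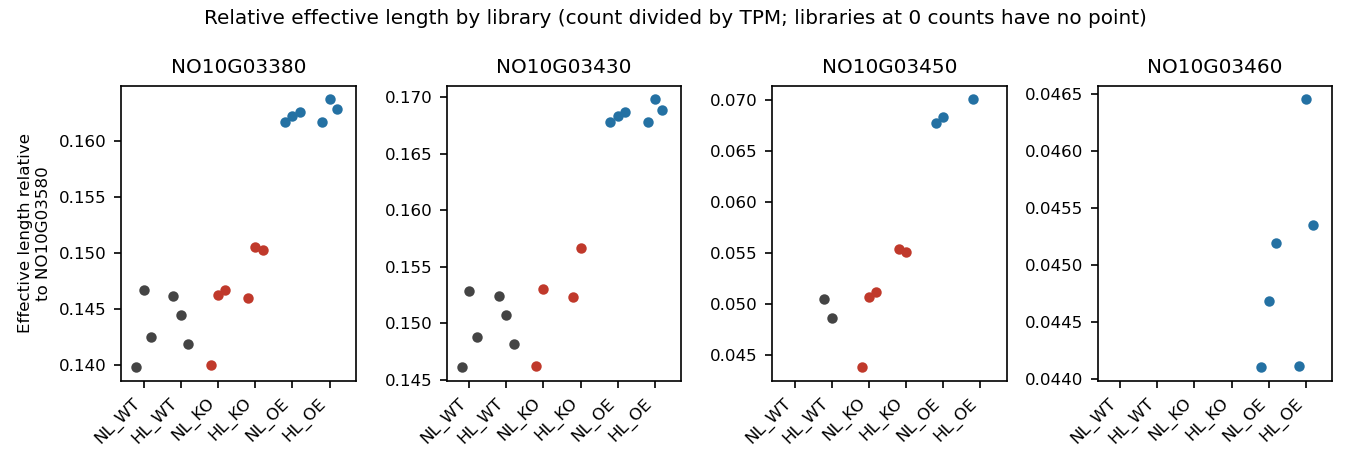
Effective length relative to NO10G03580 for 4 IDs, by group, 1 point per library with counts; each panel has its own axis, which does not start at 0. For NO10G03380 all 6 OE libraries lie above the 12 others, for NO10G03430 above the 10 others with counts, and NO10G03460 has values in OE libraries only.

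Of the 31 IDs, 13 had counts in all 18 libraries. Among pairs of these 13, the copies NO10G03470 and NO10G03620 had the narrowest ratio, which varied 1.06-fold between libraries, followed by NO10G03490 to NO10G03580, which varied between 0.283 and 0.424. The CPM of NO10G03580 varied 5.64-fold over the same libraries. Other long IDs of the block did not keep such a ratio, since NO10G03580 to NO10G03600 varied 9.26-fold and NO10G03420 to NO10G03580 8.96-fold. Outside the block, NO10G03370 to NO10G03380 varied 1.90-fold. The 4 highest ratios of NO10G03490 to NO10G03580 were 0.424 in NL_KO replicate 2, 0.417 in HL_KO replicate 3, 0.383 in NL_KO replicate 3 and 0.379 in HL_WT replicate 1, which were also the 4 highest libraries for NO10G03450. The remaining 14 ratios were 0.283 to 0.340. NO10G03610 was the least steady of the 13, with a 97.2-fold range in CPM. It had 534 counts in HL_KO replicate 2 against 8474 to 56689.5 in the other 17 libraries. The same library had the fewest counts of NO10G03580 (10951), NO10G03490 (3720.05) and NO10G03600 (1831), and the most of the set of 4, of NO10G03540 and of NO10G03480 and NO10G03630. By CPM, however, NO10G03600 was lowest in HL_OE replicate 3, at 112 against 138 in HL_KO replicate 2.

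Besides NO10G03460, the OE libraries stood apart without overlap in NO10G03370 and NO10G03380, which lie outside the block and have whole counts. NO10G03370 had 216.5 to 294 CPM in the OE libraries and 49.0 to 166 in the others. NO10G03380 had 72.8 to 97.1 against 21.7 to 61.0. These were 3 of 31 IDs, and 20.6% of all IDs had OE libraries that did not overlap the other 12, so such a separation is common in these data.

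The light comparisons were made within a strain, and did not choose the range. Of the 31 IDs 25 passed the filter on low counts. NO10G03460 passed through its OE counts alone and had 0 counts in all WT and KO libraries, so 24 IDs had counts to test in comparisons of those strains. NO10G03510, among the 24, also passed through its OE counts alone. It had at most 2.45 counts in any WT library and 2.30 in any KO library. NO10G03540, also among the 24, passed only with its OE counts too. Of the WT and KO libraries only HL_KO replicate 2 (7987) and NL_WT replicate 1 (11.5) exceeded 4.27 counts, too few for the filter. It was at 0 in all NL_KO and HL_WT libraries. Neither was called in the main fit. In WT, 5 of these 24 were lower and 1 higher at high light, where 13.3% of all 9912 tested genes were called and 8.62% were called lower (edgeR, Benjamini-Hochberg adjusted p below 0.05). Of the 18 tested IDs nearest to the range 2 were called, both lower, and of the other 365 tested NO10 IDs 46 were called (12.6%). The median log2 fold change was -0.97 over the 24 and 0.02 over all tested genes. The 24 hold near-equal copies, which are not separate measurements. NO10G03430, NO10G03500, NO10G03570 and NO10G03590 each entered at -1.63 (SE 1.4), and NO10G03470 and NO10G03620 at -1.93 and -1.94. NO10G03540 entered at -4.99 (SE 8.17), with WT counts in NL_WT replicate 1 only. A median with copies summed was not taken, so no shift of the whole range is read from -0.97. These are bulk cultures, in which fewer expressing cells and less RNA per cell cannot be told apart.

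NO10G03580 had 4652, 3032 and 2399.8 CPM in NL_WT and 1134, 1088 and 1203 in HL_WT. The groups did not overlap, and in edgeR the log2 difference came to -1.56 (SE 0.32, adjusted p = 0.00577). NO10G03490, whose counts followed those of NO10G03580, had 1407, 961 and 678 CPM in NL_WT and 429, 332 and 372 in HL_WT (log2 fold change -1.43, SE 0.34, adjusted p = 0.0114, edgeR), again without overlap. The copies NO10G03470 and NO10G03620 cannot be counted as separate results. NO10G03470 had 66.6, 26.2 and 16.6 CPM in NL_WT and 11.4, 6.61 and 10.6 in HL_WT, and summed with its copy it differed by -1.94 on the log2 scale (edgeR, SE 0.47, adjusted p = 0.0134). Its highest library was NL_WT replicate 1.

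Outside the block, NO10G03660 had 64.1, 40.2 and 19.6 CPM in NL_WT and 22.4, 12.4 and 14.6 in HL_WT, groups that overlapped (log2 fold change -1.33, SE 0.35, adjusted p = 0.0197, edgeR). NO10G03400 was the 1 ID called higher, with 148, 138 and 138.5 CPM in NL_WT and 273, 189.8 and 187 in HL_WT (log2 fold change 0.61, SE 0.19, adjusted p = 0.0386, edgeR). Without NL_WT replicate 1 the 6 calls became 1, that of NO10G03580. The log2 fold change of NO10G03470 was then -1.17 (adjusted p = 0.11, edgeR) and that of NO10G03660 -0.87 (adjusted p = 0.124, edgeR). Without HL_WT replicate 2 the 6 calls became 3. A fit of the 2 WT groups alone also left 1, again NO10G03580, which remained called in every alternative run. None of those runs changed how shared reads were divided, and NO10G03580 and NO10G03490 had fractional counts in all 18 libraries. For NO10G03400 the call was lost without any one of the OE libraries, without HL_WT replicate 1 and without any NL_WT library.

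**Figure D4:**
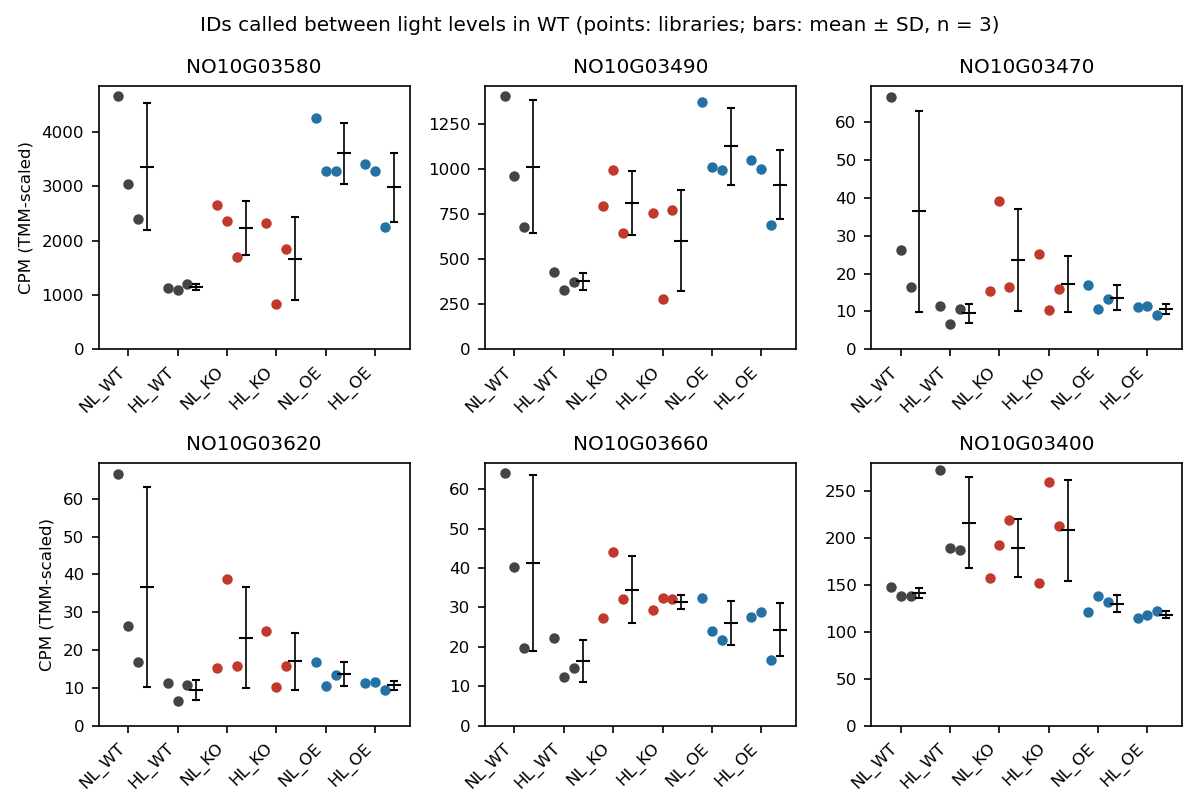
CPM, scaled by TMM, of the 6 IDs called between light levels in WT, for all 6 groups; points are libraries and bars are the mean ± SD of 3. In WT the 3 HL libraries of NO10G03580 lie between 1088 and 1203, below all 3 NL libraries, and the highest NL_WT point of NO10G03470, 66.6 CPM, is replicate 1.

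In the KO strain edgeR called 0 of the 24 IDs between light levels, with 3 at an unadjusted p under 0.05, and DESeq2 called 0. Of all genes tested, 2.85% were called. Without HL_KO replicate 1 edgeR called NO10G03370 (log2 fold change -0.94, adjusted p = 0.0283), NO10G03380 (-1.03, adjusted p = 0.0181) and NO10G03540, and without HL_KO replicate 3 NO10G03540 alone. NO10G03540 had 7987 counts in HL_KO replicate 2 and 0 in all NL_KO libraries, so nothing is read from its calls. NO10G03580 had 2657, 2358 and 1689.7 CPM in NL_KO and 2319, 825 and 1853 in HL_KO. In the OE strain edgeR and DESeq2 called 0 of 25, with 0 at an unadjusted p under 0.05, where 0.333% of all genes were called. NO10G03580 had 4248, 3284 and 3281 CPM in NL_OE and 3409, 3280.4 and 2244 in HL_OE, and NO10G03460 had 38.9, 29.6 and 29.8 in NL_OE and 16.2, 22.0 and 32.3 in HL_OE, with overlap in both. A fit of the OE groups alone called 3 IDs lower at high light, NO10G03370 (log2 fold change -0.31, adjusted p = 0.00864, edgeR), NO10G03380 (-0.33, adjusted p = 0.00271) and NO10G03640 (-0.46, adjusted p = 0.0251). The difference between KO and WT in the light response was tested as well, in a fit added after the data were seen. edgeR called 0 of 24 IDs (6 at an unadjusted p under 0.05), where 0.605% of all genes were called. For NO10G03580 the light response in KO differed from that in WT by a log2 value of 1.13 (SE 0.45, adjusted p = 0.212, edgeR). For OE minus WT in the light response, edgeR called 0 of 24 IDs (7 at an unadjusted p under 0.05), where 3.7% of all genes were called. NO10G03460 is left out of these 24, since it had 0 counts in all WT libraries. For NO10G03580 the light response in OE differed from that in WT by a log2 value of 1.28 (SE 0.45, adjusted p = 0.135, edgeR).

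KO was set against WT within each light level, comparisons that share their WT libraries with the light comparison in WT. At normal light edgeR called 0 of 24 IDs, with 2 at an unadjusted p under 0.05, where 0.131% of all genes were called. DESeq2 called 1, NO10G03450, which had 117, 20125 and 10613 counts in NL_KO and 0 in all 3 NL_WT libraries. The range was chosen on switching counts such as these, so nothing is read from that call. At high light edgeR and DESeq2 called 0 of 24, where edgeR had 4 IDs at an unadjusted p under 0.05 and 3.63% of all genes were called. Without HL_KO replicate 1 edgeR called NO10G03540 and NO10G03530 at high light, without HL_KO replicate 3 it called NO10G03540, and without HL_WT replicate 1 NO10G03420. NO10G03530 was not tested in the main fit and passed the filter here only through its HL_KO counts. It had 0, 11.4 and 26.7 counts in HL_KO and 0 in all 3 HL_WT libraries, so nothing is read from its call. NO10G03540 had 0, 7987 and 4.27 counts in HL_KO and 0 in all 3 HL_WT libraries, so the calls of this ID rest on HL_KO replicate 2.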

How the data were processed

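The authors' deposited expected counts are estimated reads per gene ID without normalization; no library had fewer than 96.3% whole values, and fractional ones were rounded for the tests. TPM, likewise deposited by the authors, is scaled for length and library total. Salmon, STAR, Trim Galore and Picard were used, per the submitters' processing notes. No source used here gives their versions, the genome build or the annotation. Total counts were 14614662 to 18156737 per library, and a floor of 3 counts covers counting error alone, because PCR copies of a molecule cannot be recognised.

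The test was that of edgeR 4.0.16, run in R 4.3.3 on the whole table (quasi-likelihood F test with robust estimation, TMM scaling, filterByExpr), in 1 fit of 6 groups without covariates. A gene was called at a Benjamini-Hochberg adjusted p below 0.05 over the 9912 tested. Each SE was calculated from the edgeR output, as the absolute log2 fold change divided by the square root of F, and is approximate. CPM values use TMM-scaled library sizes. Alternatives were RLE scaling, DESeq2 1.42.0, other filters, the replicate number as a block, the compared groups only, near-equal copies summed, other thresholds, and each library left out in turn. A fractional count was one more than 1e-06 from a whole number. The fit was also run on simulated data, with known changes in HL_OE and the same spread for all genes. That simulation held no shared reads and no all-or-none counts, so it does not bear on those.

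The range, its IDs, the comparison lists and the rules were chosen with earlier results of these data known. The text names every all-or-none ID, near-equal copy and called ID, the 3 with the highest mean CPM, those at 0 in all libraries, and the edges; the other IDs named were chosen after their values were seen.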

Additional observations from a re-analysis of the deposited data

How the results depend on the processing

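The counts of IDs called kept within 1.5 times of the reported value under RLE scaling, summed copies, an unfiltered table and a minimum of 5 CPM in 3 libraries. DESeq2 gave 1 call in place of 0 for KO against WT at normal light. For light in WT it gave 7 in place of 6, the addition being NO10G03450. That ID had 9496, 165 and 0 counts in HL_WT and 0 in all NL_WT libraries. The range was chosen on such switching counts, so nothing is read from the DESeq2 calls of NO10G03450. Fits of the compared groups only gave 1 call in place of 6 for light in WT and 3 in place of 0 for light in OE; the cause was not tested. Leaving out single libraries gave 1 to 7 calls for light in WT, 0 to 3 for light in KO, 0 for light in OE, 0 for KO against WT at normal light and 0 to 2 at high light. It gave 1 to 2 IDs all-or-none between strains, 7 to 7 near-equal pairs and 5 to 8 IDs all-or-none between libraries. Near-equal pairs numbered 3 at a tolerance of 2%. Without both HL_KO replicate 2 and HL_WT replicate 1, chosen after seeing the data, 5 IDs were all-or-none between libraries, and light in WT gave 7 calls.

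The replicate numbers are not known to pair cultures. Correlations of deviations between same-numbered libraries ran from -0.639 to 0.512, and of 6 libraries, those that correlated best with their own number were 4 for light in WT, 2 for light in KO, 2 for light in OE and 0 for each KO against WT comparison. With the replicate block 5 IDs were called for light in WT, NO10G03400 being lost (adjusted p = 0.0594, edgeR), and 0 in the other comparisons.

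For IDs with fractional counts, a switch between libraries in the RNA and one in the estimate cannot be told apart from the count tables.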
